A study of Rattus norvegicus with 8 samples.

Results

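Semaphorins, plexins and neuropilins were examined in the thoracic spinal cord of rats with a spinal cord injury (SCI) and of sham-operated rats. The members were the genes whose symbol is a class 3 to class 7 semaphorin, a plexin or a neuropilin and to which a probe set of the array was assigned alone. This gave 25 genes of 18166 tested, of which 19 are ligands (semaphorins) and 6 are receptors (2 neuropilins and 4 plexins). RefSeq lists 31 rat genes with such symbols. Plxnb2 had only a probe set that it shares with another symbol, and Sema6a, Plxna1, Plxna4, Plxnb1 and Plxnc1 were not analysed here. Sema4d had 2 probe sets, and the brighter of them stands for the gene.

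All animals were male Long Evans rats, given in the labels as about 175 days old, with a body weight of 400 g in the design text. The 4 SCI arrays came from rats with an injury of the thoracic cord and the 4 sham arrays from rats that had the laminectomy without the injury. Rats of both groups ate chow for 4 weeks after surgery and then a diet with 40% fat, so the diet does not part the groups. A total of 8 weeks is recorded for every array. The tissue is labelled as thoracic segments 10 to 11 in one place and 11 to 12 in another, and no source used here places the lesion relative to it. The labels do not tie arrays to numbered animals, so the p-values measure the spread between these samples, which may be technical in part.

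Semaphorins are secreted or membrane-bound proteins that steer growing axons, blood vessels and immune cells. Plexins are their signalling receptors, and most secreted class 3 semaphorins reach plexins through the neuropilins, which are binding subunits with little signalling of their own. In the injured adult cord class 3 semaphorins are known from the fibroblasts of the scar, and Sema4d is known from myelinating oligodendrocytes, where both have been studied as inhibitors of axon growth. Neuropilins also bind members of the vascular endothelial growth factor (VEGF) family.

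Values are log2 signals from RMA (robust multi-array average), on which a difference of 1 is a doubling. The medians of the arrays lay between 3.73 and 3.81. A signal cannot be set against that of another gene, because probes differ in how well they bind. For the same reason marker levels give no check of the labelled tissue, and markers are only compared between the groups. Fewer cells of a type and less RNA per cell cannot be told apart in whole tissue.

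In injured cord both neuropilins, plexin D1 and the ligands Sema3b, Sema3c and Sema5b were higher than in sham, by 1.47-fold to 1.68-fold, and Sema4d was 1.83-fold lower. The axon-repelling Sema3a had nearly the same level in both groups (difference 0.01, 95% interval -0.20 to 0.21). Of the 25 members, 6 were higher and 1 was lower at a limma adjusted p under 0.05 over all genes, against 7.10% of all genes called higher and 7.06% called lower (14.2% in either direction). That is 24% of the members higher and 4% lower. None of the members changed by 2-fold (0 of 25, also at an unadjusted p under 0.05 in limma). Few genes did so in these data, 296 of all 18166 at any p. Without a fold limit, 11 of 25 members were at an unadjusted p under 0.05 in limma, beside 4850 of all 18166 genes. Counts at an unadjusted p from this fit that are given below have that background. The groups did not overlap for 8 members (20.3% of all genes), 6 with SCI above sham (9.36% of all genes) and 2 with SCI below (10.9% of all genes). The members' median difference was -0.07, beside -0.01 over all genes, and their median absolute difference was 0.18, beside 0.16.

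By role, 3 of 19 ligands were higher and 1 lower, and 3 of 6 receptors were higher and 0 lower (3 receptors at an unadjusted p under 0.05 in limma, all of them the higher ones). The median difference was -0.08 for the ligands and 0.34 for the receptors. The difference between ligands and receptors was not tested. With each array centred on its median, 6 members were higher and 3 lower, with Sema3e and Sema4g added to Sema4d. Centring moved the difference of every gene down by the same amount, and the median over all genes went from -0.01 to -0.05. In that fit 1134 of all 18166 genes were higher and 1568 lower. The added calls came with this common shift. SCI 3, sham 1 and sham 2 stood apart from the other arrays in an earlier analysis of these data. Leaving them out together for that reason left 3 members higher (Nrp2, Sema3c and Sema5b) and 0 lower. At an unadjusted p under 0.05 in limma the numbers were 6 and 5. Over all genes that fit called 563 higher and 284 lower at an adjusted p under 0.05. Its unadjusted counts over all genes were not taken.

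**Figure D1:**
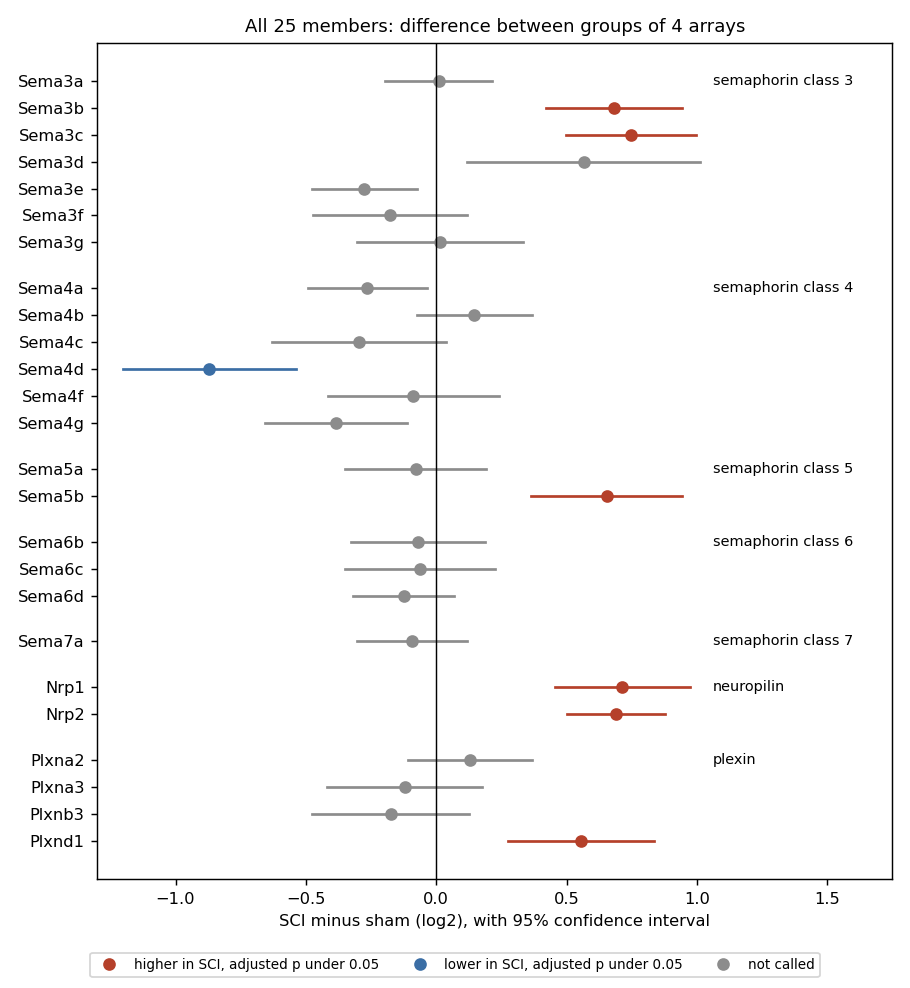
Difference between SCI and sham (log2, x axis) for all 25 members, grouped by class on the y axis. Points are differences of group means over 4 arrays each and lines are unadjusted 95% confidence intervals from limma. The 6 red members lie between 0.56 and 0.75 and the blue Sema4d lies at -0.87.

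Among the 7 class 3 semaphorins, secreted ligands most of which bind neuropilins, 2 were higher and 0 lower in SCI. Of the 7, 4 were at an unadjusted p under 0.05 in limma (Sema3b, Sema3c, Sema3d and Sema3e). Sema3c, which binds both neuropilins and signals through plexin D1, among other plexins, had signals of 6.91, 7.08, 7.23 and 6.92 in SCI and of 6.34, 6.08, 6.41 and 6.33 in sham (probe set 17788929). Every injured array lay above every sham array, with 0.50 between the closest pair. Its mean rose from 6.29 ± 0.15 to 7.04 ± 0.15 (log2, SD, n = 4), a difference of 0.75 (SE 0.11, adjusted p = 0.0018).

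Sema3b, a secreted relative that signals through neuropilins, had 6.43, 6.47, 6.53 and 6.44 in SCI and 5.49, 5.74, 6.03 and 5.87 in sham (probe set 17855551). The injured arrays lay close together, with an SD of 0.04, while the sham arrays spread with an SD of 0.23. The groups stood 0.40 apart. Sema3b rose by 0.68 (SE 0.12, adjusted p = 0.0037). Without SCI 3, sham 1 and sham 2 its difference was 0.50 with an adjusted p of 0.061.

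Sema3e, which binds plexin D1 directly without a neuropilin, had 5.92, 6.02, 5.96 and 6.03 in SCI and 6.29, 6.17, 6.19 and 6.39 in sham (probe set 17789062). Every injured array lay below every sham array, by at least 0.14. Its difference of -0.28 (SE 0.09) did not pass over all genes (adjusted p = 0.070). It passed with each array centred on its median (0.049), which moves every gene downward by the same amount. With the trended and robust variance model it passed too (0.042). It also passed among genes above the median signal alone (0.020), where 1814 of 9083 genes were called lower. Sema3c and Sema3e, which share the receptor plexin D1, thus had differences of opposite sign, and the contrast between them was not tested.

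Sema3d had a difference of 0.57 (SE 0.20, adjusted p = 0.095) with the widest spread of the class 3 ligands in sham, where the signals were 5.21, 4.59, 5.45 and 5.69. The injured arrays held 5.84, 5.90, 5.89 and 5.57, so that SCI 4 lay below sham 4. Without sham 4 the difference was 0.72 with an adjusted p of 0.043, and without sham 2 it was 0.35. Sema3a, the collapsin of growth cones, had 5.46, 5.60, 5.58 and 5.37 in SCI against 5.45, 5.46, 5.59 and 5.48 in sham, so the groups covered one another. Sema3f, which repels axons through neuropilin 2, and Sema3g had differences of -0.18 (95% interval -0.47 to 0.12) and 0.01 (-0.30 to 0.33).

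Among the 6 class 4 semaphorins, which span the membrane, 1 was lower and 0 higher, and 5 of 6 differences were negative. The exception was Sema4b (0.15, adjusted p = 0.41). At an unadjusted p under 0.05 in limma the number was 3, namely Sema4a, Sema4d and Sema4g, all with negative differences. Sema4d, also called CD100, had signals of 7.33, 6.98, 7.39 and 7.62 in SCI and 8.41, 8.10, 7.95 and 8.33 in sham (probe set 17714645). All injured arrays lay below all sham arrays, with 0.33 between SCI 4 and sham 3. Its mean was 7.33 ± 0.27 in SCI and 8.20 ± 0.21 in sham (log2, SD, n = 4), a difference of -0.87 (SE 0.15, adjusted p = 0.0038).

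The other probe set of Sema4d (17714662) held 5.75, 5.57, 5.54 and 5.93 in SCI and 6.58, 6.59, 6.22 and 6.49 in sham. It too had no overlap between the groups, and its difference was -0.77 (SE 0.13, adjusted p = 0.014 by limma over all 36685 probe sets). Without SCI 3, sham 1 and sham 2 the brighter probe set had a difference of -0.83 with an adjusted p of 0.071. With any single array left out its difference lay between -0.97 and -0.75 and the call held.

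Sema4g had a difference of -0.38 (SE 0.12, adjusted p = 0.063). The injured arrays lay at 4.86, 4.82, 5.01 and 4.85 and the sham arrays at 5.18, 5.54, 5.35 and 5.00, so that only SCI 3 and sham 4 crossed, by 0.01. Without sham 4 it passed (-0.47, adjusted p = 0.032). It also passed with each array centred on its median, where every gene moves downward (-0.42, adjusted p = 0.036). Among genes above the median signal alone it passed too (adjusted p = 0.021). Sema4a, a costimulator of T cells, had -0.26 (adjusted p = 0.13), and 0.047 among genes above the median signal alone. Sema4c, a ligand of plexin B2, had -0.30 (adjusted p = 0.25) and Sema4f -0.09 (adjusted p = 0.78).

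Of the 2 class 5 semaphorins, which carry thrombospondin repeats outside the membrane, Sema5b rose and Sema5a did not pass. Sema5b had 5.31, 5.29, 5.63 and 5.22 in SCI and 4.83, 4.90, 4.67 and 4.44 in sham (probe set 17669401). The groups stood 0.31 apart, and SCI 3 was the highest array. Sema5b rose by 0.65 (SE 0.13, adjusted p = 0.0079). With the number in the sample titles as a covariate its difference was 0.57 and its adjusted p was 0.057. The labels do not say what that number stands for. It is 4, 6, 7 and 8 in SCI and 5, 9, 10 and 11 in sham, so it is partly tied to the group. A call lost with this covariate can thus reflect a less precise group difference. For Sema5b the SE was 0.16 with it and 0.13 without. Sema5a, a ligand of plexin B3, had a difference of -0.08 (95% interval -0.35 to 0.19).

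None of the 3 class 6 semaphorins passed (0 of 3, also at an unadjusted p under 0.05 in limma), and their differences lay between -0.12 and -0.06. Sema6d, a membrane ligand whose receptor plexin A1 works with Trem2 and Tyrobp in myeloid cells, had 8.03, 8.02, 8.03 and 8.16 in SCI and 8.16, 8.11, 8.28 and 8.19 in sham. Its interval of -0.32 to 0.07 was among the narrowest of the members. Sema7a, which is held to the membrane by a lipid anchor and binds integrin beta 1, had a difference of -0.09 (95% interval -0.30 to 0.12).

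**Figure D2:**
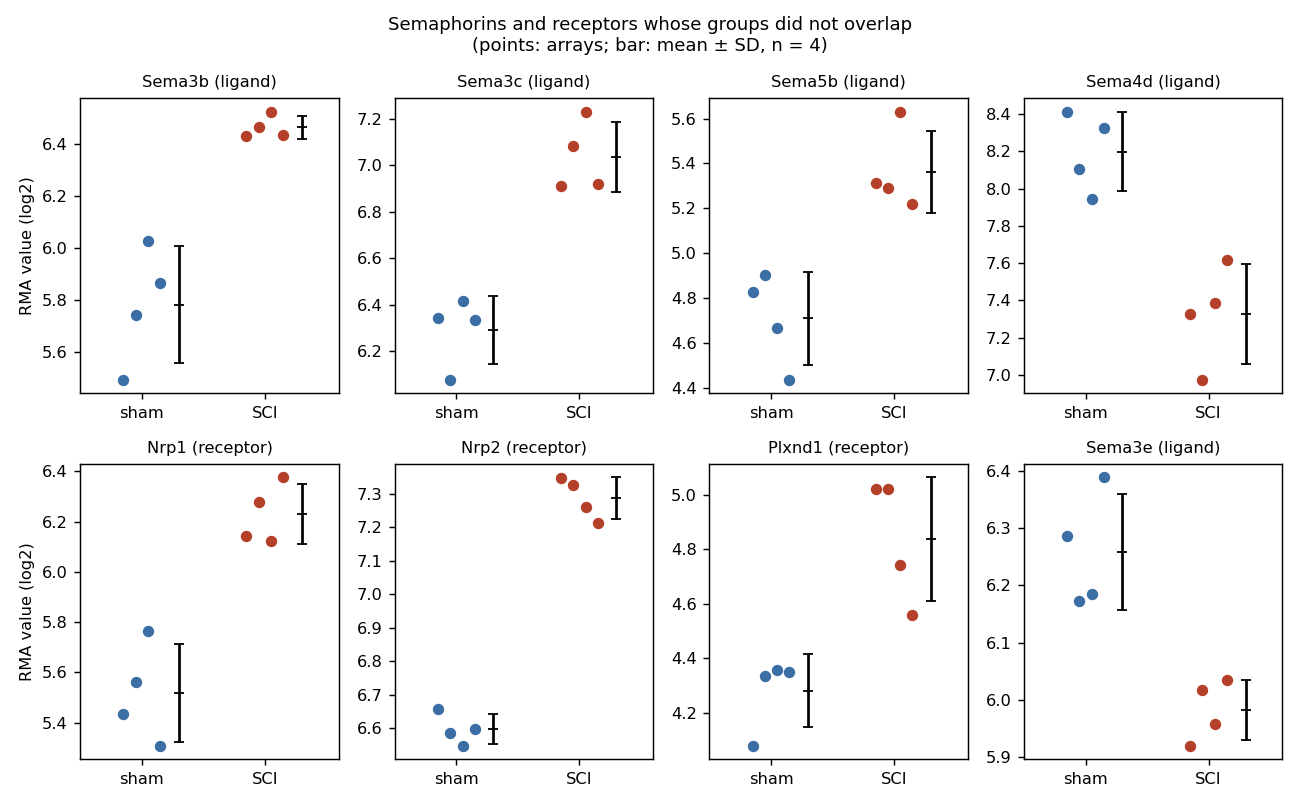
RMA signal (log2, y axis, a separate scale in each panel) of the 8 members whose groups did not overlap. Points are arrays, 4 sham (blue) and 4 SCI (red), and black bars are means ± SD. Sema4d and Sema3e lie lower in SCI and the other 6 genes lie higher.

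Both neuropilins were higher in injured cord (2 of 2), and by similar amounts. Nrp2, the binding subunit of Sema3f and Sema3c, had 7.35, 7.33, 7.26 and 7.21 in SCI and 6.66, 6.59, 6.55 and 6.60 in sham (probe set 17859826). The arrays of each group lay within a narrow band and the groups stood 0.55 apart, the widest gap of any member. Nrp2 rose from 6.60 ± 0.05 to 7.29 ± 0.06 (log2, SD, n = 4), by 0.69 (SE 0.09, adjusted p = 5.3e-04).

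Nrp1, the binding subunit of Sema3a, of Sema3c and of the main VEGF, had 6.14, 6.28, 6.12 and 6.38 in SCI and 5.43, 5.56, 5.76 and 5.31 in sham (probe set 17731247). No sham array reached the injured range, and sham 3 was the nearest, 0.36 below SCI 3. Nrp1 rose by 0.71 (SE 0.12, adjusted p = 0.0028), and its adjusted p was 0.054 without SCI 3, sham 1 and sham 2, at a difference of 0.73. The difference between the rises of Nrp1 and Nrp2 was not tested.

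Of the 4 plexins, 1 was higher and 0 lower (1 at an unadjusted p under 0.05 in limma). Plxnd1, a receptor prominent in blood vessels that serves Sema3e and Sema3c, had 5.02, 5.02, 4.74 and 4.56 in SCI and 4.08, 4.34, 4.36 and 4.35 in sham (probe set 17794022). The groups stood 0.20 apart, and sham 1 lay below the other 3 sham arrays. Its mean signal was below the median of all genes, so it is not in the fit of genes above that median. Plxnd1 rose by 0.56 (SE 0.13, adjusted p = 0.015), with an adjusted p of up to 0.049 when any single array was left out. Its difference was 0.55 with the title number as a covariate and 0.51 without SCI 3, sham 1 and sham 2, and the adjusted p of these fits were 0.066 and 0.13.

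Plxna2 and Plxna3, receptors for class 3 and class 6 ligands, had differences of 0.13 (95% interval -0.11 to 0.37) and -0.12 (-0.42 to 0.18). Plxnb3, the receptor of Sema5a, had -0.18 (-0.48 to 0.13). The upper ends of these 3 intervals lie below the estimated rise of either neuropilin, while smaller changes lie within them. In simulated data of the same size, limma recovered 32% of genes changed by 0.5 and 88% of genes changed by 1 on the log2 scale, among 18166 genes. Far fewer genes were changed there than were called in these data. The adjusted threshold therefore differs, and these shares do not give the recovery in the real fit.

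The sequence before the start of the called members was read from RefSeq's promoter table (build GRCr8), which held 19 of the 25 members and 5 of the 7 called ones. Bases outside the annotated gene were printed for Nrp1 and Sema5b, the called members that had over 100 of them. Capitals mark a match to any of 5 motifs, searched on both strands.
Nrp1, chr19:73256307-73256556, plus strand: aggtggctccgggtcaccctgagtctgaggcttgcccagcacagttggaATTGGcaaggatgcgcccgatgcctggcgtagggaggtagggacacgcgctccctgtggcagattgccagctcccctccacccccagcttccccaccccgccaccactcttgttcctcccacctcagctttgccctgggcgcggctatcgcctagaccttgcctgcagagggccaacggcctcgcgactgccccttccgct
Sema5b, chr11:78730725-78730839, minus strand: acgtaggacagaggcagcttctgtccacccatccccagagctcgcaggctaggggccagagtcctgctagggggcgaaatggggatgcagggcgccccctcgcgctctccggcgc
The Nrp1 stretch holds 1 match, a CCAAT box read on the opposite strand at bases 50 to 54 from the 5′ end. The printed Sema5b stretch of 115 bases holds none.

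The motifs were the GC box GGGCGG, the CCAAT box CCAAT, the TATA box TATAAA, the AP-1 site TGANTCA and the STAT site TTCNNNGAA. No pair of these motifs contains the other. Of 33469 rat promoters, 30.5% held a GC box in the 250 bases before the start, 34% a CCAAT box, 12.9% a TATA box, 6.34% an AP-1 site and 7.67% a STAT site. Over the outermost 115 bases the shares were 12%, 16.5%, 6.1%, 3% and 3.7%. Of the 19 members with a promoter, 10 held a GC box, 6 a CCAAT box and 0 any of the other 3 motifs in 250 bases. These windows lie wholly inside the annotated gene for Nrp2, Plxna2, Plxnb3, Plxnd1, Sema3c, Sema4a, Sema4b, Sema6b, Sema6c and Sema6d. They do so in part for Plxna3, Sema3e, Sema4c and Sema5b. The counts, which include GC boxes of Plxna2, Plxnd1, Sema4a, Sema4b and Sema6d, thus do not describe only sequence before the gene. A match is a description of letters and not of binding.

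Textbook pairings of ligand and receptor set the members side by side. Of 22 pairings, 12 had both partners among the members. In 3 of these both partners were higher, all with Sema3c as the ligand (0.75), beside Nrp1 (0.71), Nrp2 (0.69) and Plxnd1 (0.56). The list was written by hand and held no pairing for Sema3b, Sema3d, Sema4b, Sema4f, Sema4g, Sema5b, Sema6b or Sema6c. Sema3b, which signals through neuropilins, rose by 0.68. Sema3c is thus not shown to be the only ligand that rose beside its receptors. In 5 pairings the receptor rose and the ligand did not pass. These were Sema3a (0.01) beside Nrp1, Sema3f (-0.18) and Sema3g (0.01) beside Nrp2, and Sema3e (-0.28) and Sema4a (-0.26) beside Plxnd1. In the remaining 4 neither partner passed. Pairings share members, so they are not independent of one another. The receptors plexin B1 and plexin B2 of Sema4d were not analysed here, so its fall stands beside no receptor.

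Sema4d has another receptor in immune cells, the B cell molecule Cd72, which rose by 0.71 (SE 0.10, adjusted p = 0.0011). Its signals were 3.70, 3.45, 3.65 and 3.49 in SCI and 2.75, 2.83, 2.99 and 2.87 in sham, with no overlap between groups. Timd2, a receptor of Sema4a that was chosen after its value was seen, rose by 0.62 (SE 0.12, adjusted p = 0.0058). Sema4d and Cd72 thus moved in opposite directions, and Timd2 rose beside a difference of Sema4a that did not pass. The mean signals of Cd72 and Timd2 were below the median of all genes.

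Of 71 other genes of the pathway, 64 were tested, and 12 were higher and 10 lower in SCI. That is 18.8% and 15.6% beside 7.10% and 7.06% of all genes. The lists were written with earlier results of these data known, so these shares describe the lists only. Trem2 and Tyrobp are also among the myeloid markers counted below. Among 16 coreceptors and alternative receptors, 6 were higher and 2 lower (median 0.24). Tyrobp, the signalling adaptor of myeloid receptors, had 8.41, 8.71, 8.47 and 8.11 in SCI and 6.31, 6.56, 6.72 and 6.57 in sham, and rose 3.70-fold (1.89, SE 0.14, adjusted p = 2.3e-05). Its partner Trem2, a lipid-sensing receptor of microglia, rose 3.05-fold (1.61, SE 0.16, adjusted p = 1.2e-04). The plexin B1 partner Met, chosen after its value was seen, rose by 0.69 (SE 0.12, adjusted p = 0.0048).

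Integrin beta 1, Itgb1, a receptor of Sema7a, rose by 0.41 (SE 0.11, adjusted p = 0.032), but passed in only 2 of the 8 fits that left out an array, with adjusted p of 0.033 to 0.090. The axonal adhesion molecules L1cam and Cntn2, which take part in Sema3a responses and were chosen after their values were seen, were lower by differences of -0.48 (adjusted p = 0.016) and -0.41 (adjusted p = 0.032). The call of Cntn2 also held in only 2 of these 8 fits (adjusted p of up to 0.092), and that of L1cam in all 8. With the title number as a covariate both lost their call, at differences of -0.50 for L1cam (adjusted p = 0.060) and -0.30 for Cntn2 (adjusted p = 0.18), as did Itgb1 at 0.45 (adjusted p = 0.073).

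Of 5 VEGF family genes, whose products compete for or use neuropilins, 1 was higher and 1 lower. Placental growth factor, Pgf, had 6.17, 6.14, 5.91 and 5.96 in SCI and 5.28, 5.50, 5.29 and 5.49 in sham, and rose by 0.66 (SE 0.10, adjusted p = 0.0022). Vegfa, the main angiogenic factor, had 6.03, 6.28, 5.79 and 5.96 in SCI and 6.70, 6.73, 7.73 and 6.55 in sham. The injured arrays lay below the sham arrays, and sham 3 stood far above the other sham arrays. Vegfa changed by -0.92 (SE 0.23, adjusted p = 0.023), with a difference of -0.65 without sham 3, and its call was lost without SCI 1, SCI 3 or SCI 4 (0.051 to 0.064). With the title number as a covariate its difference was -0.87 (adjusted p = 0.10). The neuropilins and Vegfa thus had differences of opposite sign.

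Of 8 collapsin response mediators and MICAL oxidoreductases, which carry semaphorin signals to the cytoskeleton, 0 were higher and 2 lower, with 4 at an unadjusted p under 0.05 in limma. Dpysl2, the mediator of Sema3a collapse, fell by 0.43 (SE 0.09, adjusted p = 0.0070) and Dpysl5 by 0.67 (SE 0.12, adjusted p = 0.0038). Crmp1 had -0.18 (adjusted p = 0.45). Mical1, an oxidoreductase that takes actin filaments apart, had 0.74 (SE 0.23, adjusted p = 0.058) and was picked with its value known.

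Of 19 small GTPases and their regulators, 3 were higher and 4 lower (median -0.02). Rnd2, of the Rnd family that binds plexins, had 9.44, 9.23, 9.33 and 9.60 in SCI and 10.21, 10.26, 9.94 and 10.18 in sham, and fell by 0.75 (SE 0.11, adjusted p = 0.0018). Rras and Mras, Ras-family GTPases on which plexins act, had opposite signs, with 0.49 (adjusted p = 0.019) and -0.43 (adjusted p = 0.013). Rras lost its call without SCI 2 (0.060), and Mras with the title number as a covariate, at a difference of -0.38 (0.079). Rap1b (0.48), Rnd3 (0.40), Rnd1 (-0.50) and Tiam1 (-0.43) also passed, chosen after their values were seen, and held in 3, 2, 2 and 6 of the 8 fits without an array. Of these 4, Rnd3, Rnd1 and Tiam1 also lost their call with the title number as a covariate, at differences of 0.45, -0.53 and -0.40 (adjusted p of 0.105, 0.107 and 0.094).

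Of 11 kinases and cytoskeletal effectors 1 was higher and 0 lower, while 5 were at an unadjusted p under 0.05 in limma. The higher one was Fes, a kinase that acts on collapsin response mediators (0.57, SE 0.10, adjusted p = 0.0040). Of 5 proteases that process semaphorins or neuropilins, 1 was higher and 1 lower. Mmp14, a membrane metalloproteinase that sheds Sema4d, had 6.70, 6.32, 6.41 and 5.78 in SCI and 5.10, 5.12, 5.22 and 5.07 in sham, and rose 2.26-fold (1.17, SE 0.17, adjusted p = 0.0012). SCI 4 was the lowest of the injured arrays and still lay above all sham arrays. Pcsk6, a proprotein convertase, changed by -0.57 (SE 0.13, adjusted p = 0.017), and by -0.55 with the title number as a covariate (adjusted p = 0.077). With each array centred on its median, 9 pathway genes passed upward and 13 downward, beside 1134 and 1568 of all genes. Leaving out the 3 arrays named above gave 7 higher and 0 lower, beside 563 and 284 of all genes. At an unadjusted p under 0.05 in limma the numbers were 15 and 11, without a count over all genes.

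**Figure D3:**
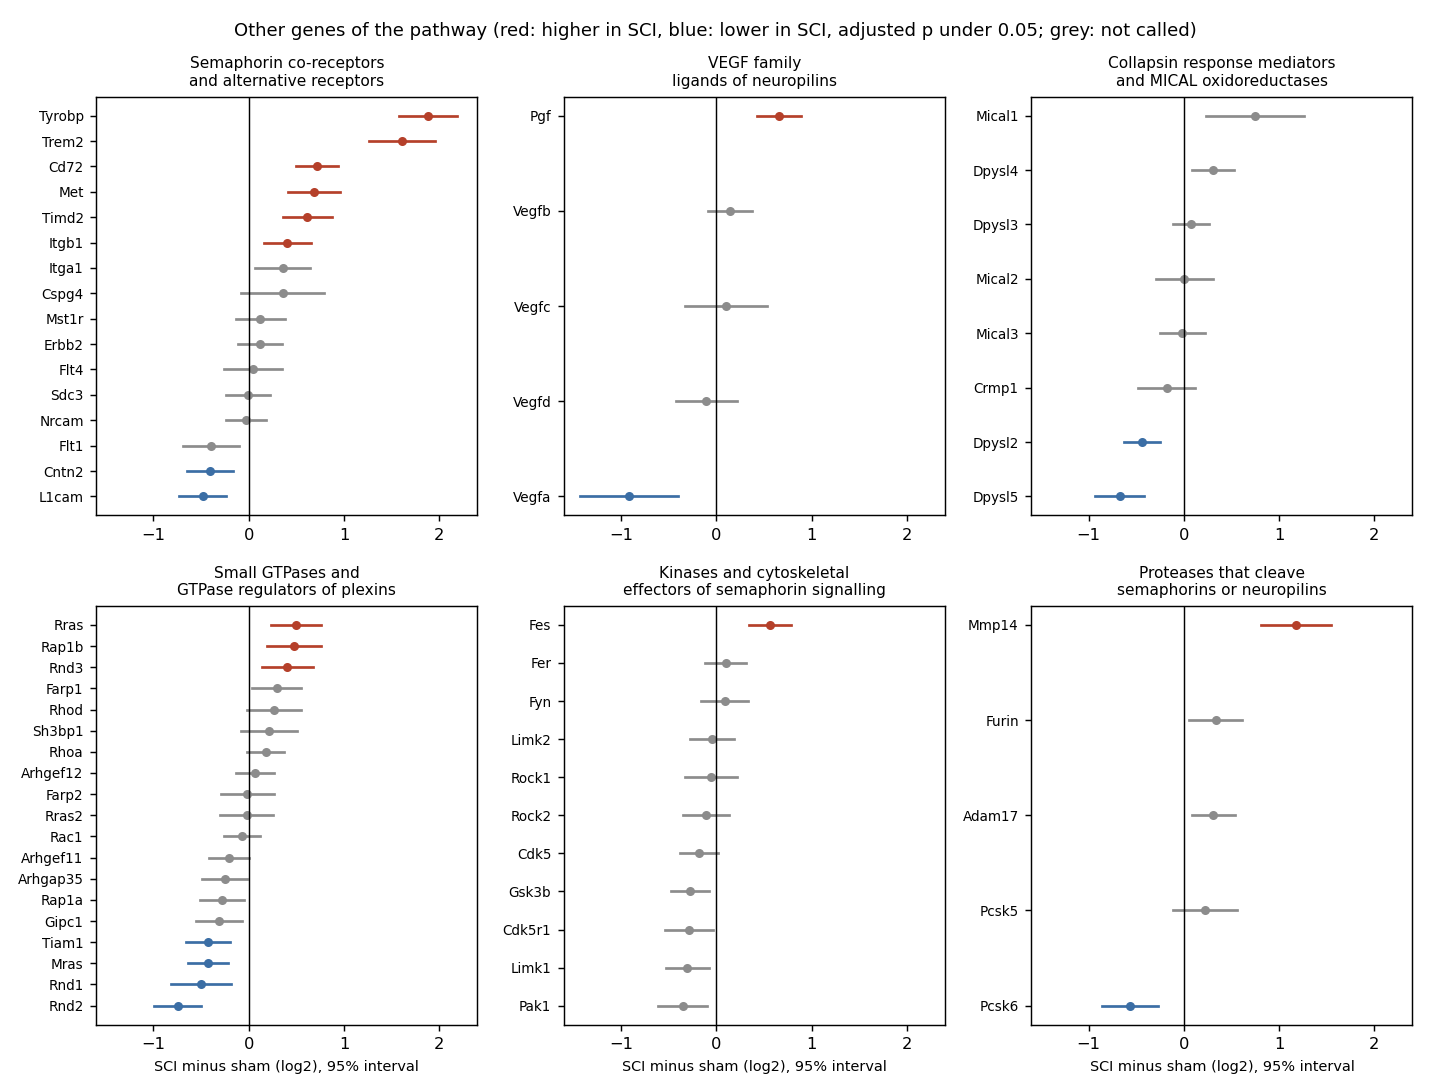
Difference between SCI and sham (log2, x axis) of 64 other genes of the pathway in 6 lists, each gene on its own line. Lines are unadjusted 95% confidence intervals from limma. Tyrobp (1.89), Trem2 (1.61) and Mmp14 (1.17) lie farthest to the right and Vegfa (-0.92) farthest to the left.

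Markers of several cord cell types moved between the groups together with the members. Of 8 myeloid markers 8 were higher, and their mean signal ranged from 7.45 to 7.83 in SCI and from 6.01 to 6.27 in sham. Trem2 and Tyrobp, already counted among the coreceptors, belong to them. Of 8 fibroblast and meningeal markers 4 were higher and 0 lower, with a mean signal of 6.97 to 7.44 against 6.19 to 6.73. Of 7 endothelial markers, which include those of the vessels where Nrp1 and Plxnd1 are known, 1 was higher (Cdh5, 0.68, chosen after its value was seen) and 0 lower, with ranges of 5.87 to 6.06 and 5.78 to 6.15 that overlap. The part of these cell types in the rise of the neuropilins, Plxnd1, Sema3b, Sema3c and Sema5b was not tested.

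Of 7 oligodendrocyte markers, 5 were lower and 0 higher, with a mean signal of 9.29 to 9.47 in SCI and 9.86 to 9.93 in sham. The median difference of that list was -0.59, beside -0.87 for Sema4d. Of 8 neuronal markers 8 were lower, with 8.83 to 9.08 against 9.40 to 9.58. The part of these cell types in the fall of Sema4d, Dpysl2, Dpysl5, Rnd2, L1cam and Cntn2 was not tested.

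Of 6 Schwann cell markers 3 were higher and 0 lower (6.08 to 6.50 in SCI against 5.56 to 5.82 in sham), and of 7 lymphocyte markers 3 were higher and 0 lower (3.91 to 4.06 against 3.45 to 3.62). The 3 lymphocyte markers, named after their values were seen, were Cd8a (1.48), Cd4 (0.95) and Cd3g (0.49). Of the 7 markers only 1, Cd4, had a mean signal above the median of all genes, and Cd3g lay at 1.67 to 2.50. Whether these genes mark only lymphocytes in this tissue was not tested. Cd3e (0.13, adjusted p = 0.645), Cd79b (0.17), Ms4a1 (0.13) and Nkg7 (-0.11) did not pass. Whether lymphocytes were more numerous in SCI was not tested. Of 6 astrocyte markers 2 were higher and 1 lower (10.06 to 10.17 against 9.86 to 9.92). Of 7 oligodendrocyte precursor markers 1 was higher and 1 lower, and of 6 pericyte and smooth muscle markers 1 was higher and 0 lower. Of 5 motor neuron and 2 ependymal markers 0 passed, with 3 and 0 at an unadjusted p under 0.05 in limma. The motor neuron mean was 5.281 to 5.315 in SCI against 5.375 to 5.544 in sham, without overlap. The ependymal ranges overlapped. No marker can be called absent, since RMA gives every probe set a signal.

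**Figure D4:**
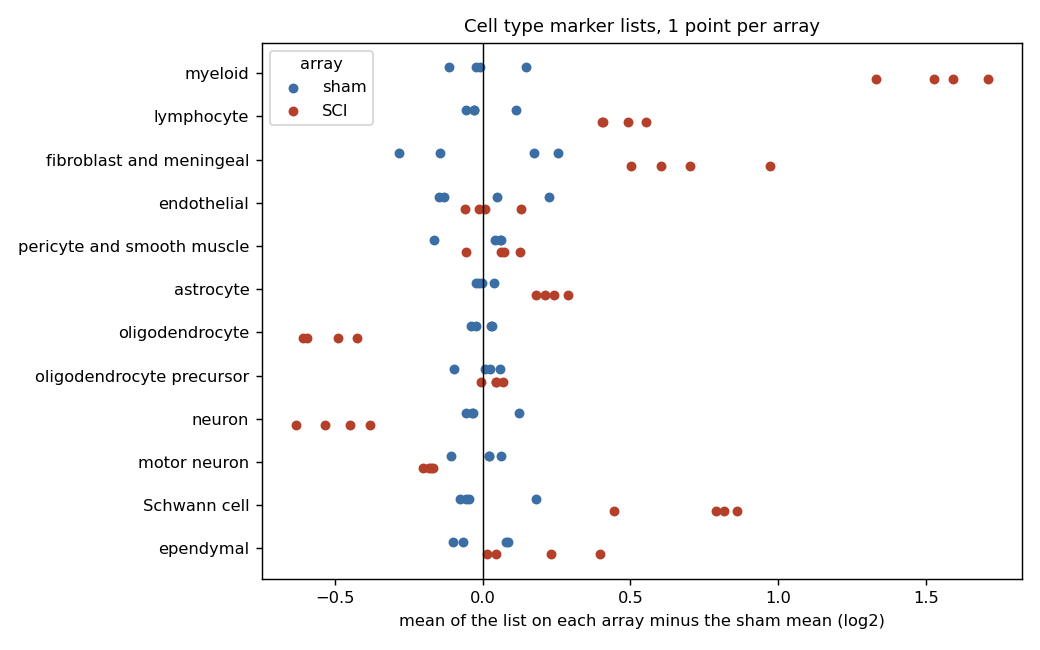
Mean log2 signal of each marker list on each array, minus the mean of the 4 sham arrays (x axis), for 12 cell types (y axis). Myeloid markers lie farthest above sham in SCI, and neuronal, oligodendrocyte and motor neuron markers lie below sham. The endothelial ranges overlap (5.87 to 6.06 in SCI and 5.78 to 6.15 in sham).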

How the data were processed

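Total RNA of 8 cord samples was hybridised to Affymetrix Rat Gene 2.0 ST arrays. The authors deposited log2 values from Affymetrix Expression Console and RMA, per the submitters' processing notes, and no source used here gives settings, probe library or build. Of 36685 probe sets, 18511 had 1 symbol in the platform annotation, 575 several and 17599 none here. Of several probe sets for a gene, that of the highest mean signal was taken, with no filter on dim genes. Of the members 25 of 25 gene IDs gave the same symbol in RefSeq, and 20 of 25 had a mean above the median of all genes.

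The groups were compared by lmFit and eBayes of limma 3.58.1 (R 4.3.3) without a covariate and with Benjamini-Hochberg adjustment over 18166 genes, called at an adjusted p under 0.05. An adjusted p is from this limma model unless another fit is named beside it. The script was tested on simulated data. Precision is limited by having 4 arrays a group. Members and lists were chosen with earlier results of these data known. Called members, members whose groups did not overlap, the 3 called genes with the smallest p of each pathway list and 6 fixed genes (Trem2, Tyrobp, Itgb1, Vegfa, Dpysl2 and Crmp1) were named, and other genes of the lists are said to be chosen after their values were seen. Alternatives changed scaling, dim-gene filter, probe set choice, variance model, array weights, covariate, threshold and arrays.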

Additional observations from a re-analysis of the deposited data

Results flagged for a closer look

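A sample lay far from the other 3 of its group in 3 of 50 groups examined (25 members in SCI and in sham), where chance gives about 1 in 20. Plxnd1 was 4.08 in sham 1, against 4.34 to 4.36 in the other sham arrays. Sema5a was 6.43 in sham 3, against 6.52 in each of the others. Sema6d was 8.16 in SCI 4, against 8.02 to 8.03 in the other injured arrays.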

How the results depend on the processing

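Of the 7 called members, Nrp2 and Sema3c kept their call under all alternatives but the 2-fold threshold, and each of the 7 kept its call and direction in all 8 fits without 1 array. Main counts were 6 members higher and 1 lower, and 12 pathway genes higher and 10 lower. Leaving out SCI 3, sham 1 and sham 2 together gave 3 and 0, and 7 and 0, where fewer arrays entered. With the title number as covariate, 3 pathway genes were lower. The meaning of that number is not stated, and it is partly tied to the group. Centring on the array median, which moves every gene downward by the same amount, gave 3 lower members. Over all genes 1134 were then higher and 1568 lower. The trended and robust model gave 2 lower members. The filter on dim genes gave 4 lower of 20 members and 16 lower of 49 pathway genes. In that fit fewer genes were tested and the variance model was fitted anew, so SEs changed too. Over its 9083 genes, 1367 were higher and 1814 lower. At an adjusted p under 0.01, 3 pathway genes were lower. At 2-fold or more, 0 members were higher and 0 lower, and 3 pathway genes were higher and 0 lower (0, 0, 3 and 0 at an unadjusted p under 0.05 in limma). Of all 18166 genes, 296 differed by 2-fold or more at any p. Leaving out 1 array gave 6 to 7 members higher and 1 to 2 lower, and 8 to 11 pathway genes higher and 6 to 10 lower. Where no construction is named, the cause was not tested. Over all genes, 1290 were higher and 1282 lower, against 563 and 284 without the 3 arrays, 813 and 543 with the covariate, 923 and 780 without SCI 2, and 1002 and 838 without sham 4. No detection call or background value was used, so what low signal limits was not measured.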
